A study of Mus musculus with 4 samples.

Results

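The comparison described here set the liver transcriptome of a male mouse lacking the Cyp3a genes against that of a wild type (WT) male. Every gene with a mean of at least 1 CPM (counts per library total of 1000000, after scaling) over the 4 libraries of the series was taken, which gave 11743 of the 33639 genes in the table. The series holds 1 liver library from each of 4 genotypes, namely WT, a global Cyp27a1 knockout (KO), a global Cyp3a KO and the global double knockout of both (DKO). All were untreated males on standard chow, with tissue kept in RNAlater and libraries prepared by the TruSeq RNA kit. The genotype label names the human symbol Cyp3a4, although the mouse has a family of Cyp3a genes, and a title label reads Cyp3a. The strain, the extent of the deletion, the age of the mice and the hour of tissue collection were not seen in the labels read. With 1 library on each side no difference has a replicate check, so sizes are described without a test and every statement is about these libraries.

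Cyp3a enzymes are cytochrome P450 monooxygenases of the endoplasmic reticulum that oxidise many drugs, steroid hormones and bile acids. In hepatocytes they are induced through the nuclear receptors PXR and CAR, which also control other P450s, conjugating enzymes and exporters. The liver makes cholesterol through the mevalonate pathway, whose genes are driven by SREBP2 when membrane sterol is low, and disposes of cholesterol largely as bile acids. Many of these pathways also vary over the day with the molecular clock and between fed and fasted states.

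The Cyp3a genes were read first, since they check the label. Cyp3a11, the most abundant hepatic member (chromosome 5, 145854426 to 145879964, GRCm38), had 8 counts in the Cyp3a KO library against 407590 in WT, 1180555 in the Cyp27a1 KO and 258 in the DKO. Cyp3a25 (chromosome 5, 145977194 to 146009618) had 0 counts in the Cyp3a KO library against 31582 in WT, 50445 in the Cyp27a1 KO and 19 in the DKO. Cyp3a59 had 0 counts in the Cyp3a KO library against 3153 in WT, 14104 in the Cyp27a1 KO and 3 in the DKO. Both libraries with a Cyp3a deletion were therefore far below both others for these genes. Cyp3a13, which lies apart from the main cluster (chromosome 5, 137892932 to 137921619), had 122 counts in the Cyp3a KO library against 4933 in WT, 10756 in the Cyp27a1 KO and 143 in the DKO, and kept 0.0230 of its WT CPM. The other 4 measured members, Cyp3a16, Cyp3a41a, Cyp3a41b and Cyp3a44, had between 79 and 173 counts in WT and between 0 and 5 in the Cyp3a KO, and a count of 0 there allows up to 0.0599 CPM. In the DKO, Cyp3a16, Cyp3a41b and Cyp3a44 had between 0 and 2 counts, but Cyp3a41a had 5 counts in the Cyp3a KO library against 99 in WT, 222 in the Cyp27a1 KO and 292 in the DKO, so it went against the deletion label of the DKO, and 7 of the 8 members were lower in the DKO than in the Cyp27a1 KO. All 8 measured members were lower in the Cyp3a KO, a direction that the genotype sets, and Cyp3a57 was below the filter with 35 counts in WT and 0 in the Cyp3a KO. Because the family's members resemble each other closely in places, reads may have been assigned to the wrong one.

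Library totals lay between 49745860 and 50378101 counts, and 1 count was worth 0.0185 to 0.0214 CPM. Cyp27a1 had 36388 counts in the Cyp3a KO library against 34788 in WT, 2871 in the Cyp27a1 KO and 3538 in the DKO, so the Cyp3a KO library kept the WT level of the gene deleted in the others. Among 14 reference genes 0 were called in either direction, with a median log2 fold of -0.08, and the share of albumin (Alb) ranged from 3.78% to 7.08% of a library. Hepatocyte markers were present in all 4 libraries, with a summed 91978 CPM in the Cyp3a KO library against 132910.0 in WT, 86998 in the Cyp27a1 KO and 110350.0 in the DKO, Alb being the largest member. Markers of T and NK cells summed to 2.796 CPM in the Cyp3a KO library against 2.68 in WT, 2.51 in the Cyp27a1 KO and 2.66 in the DKO. Ly6g and Mpo of the neutrophil list, Prss1, Ins1 and Ins2 of the pancreas list and Lep of the adipose list were at 0 in all 4 libraries.

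To be called, a gene had to differ at least 2-fold between both libraries on the scale of log2(CPM + 0.5), with an exact 95% interval of the count ratio that left out 1. By this rule 301 genes were higher in the Cyp3a KO library, 2.56% of those measured, and 219 were lower, or 1.86%. Calls without the interval gave the same 301 and 219, so the interval screened out no gene past the other criteria. Of the 11743 genes, 86.95% lay within 1.5-fold of WT, and the median log2 fold was 0.01. At least 4-fold differences were found for 51 genes on the higher side and 38 on the lower side, and at least 8-fold differences for 17 and 15. Predicted gene symbols made up 43 of the higher and 29 of the lower calls. The filter let in 191 genes whose mean over the 2 libraries compared was below 1 CPM, of which 16 were called. Intervals cover counting error only, and differences between individual mice are included in every fold.

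**Figure D1:**
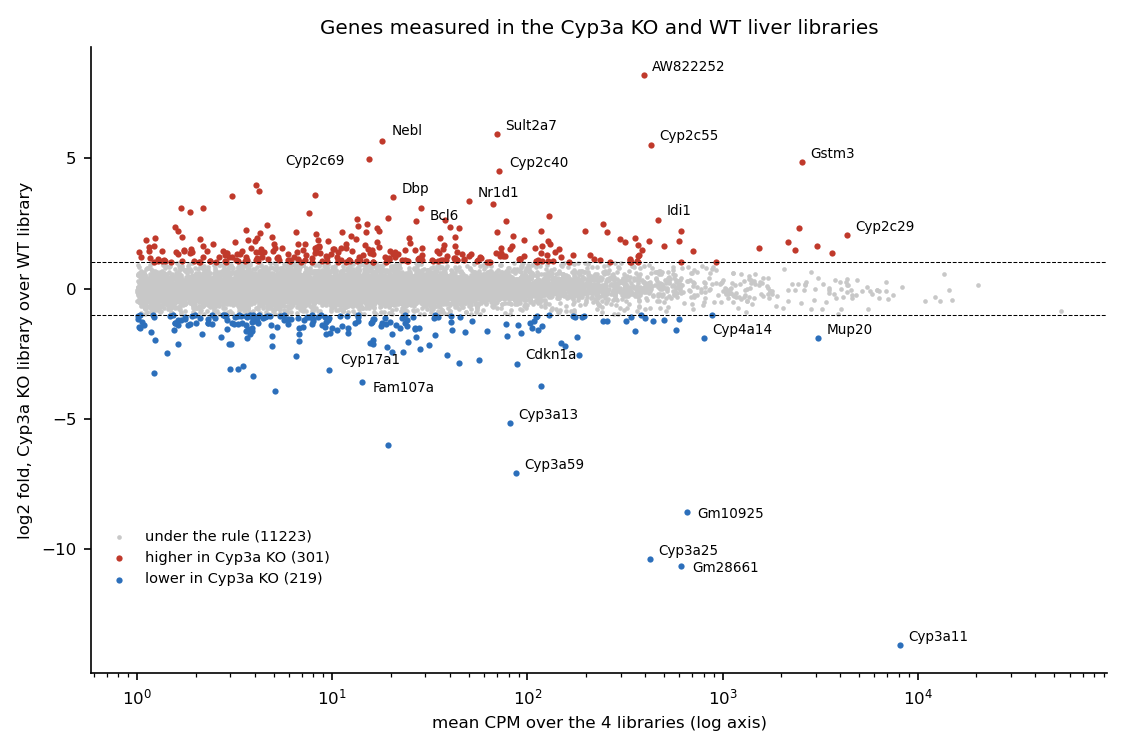
Log2 fold between the Cyp3a KO and WT libraries (vertical axis) against mean CPM over the 4 libraries (horizontal log axis), 1 point per measured gene, with 301 higher genes in red, 219 lower genes in blue and dashed lines at the 2-fold rule. Cyp3a11, Cyp3a25 and the pseudogene Gm28661 lie lowest, and AW822252, Sult2a7 and Cyp2c55 are among the highest.

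The 520 calls all rest on the same WT library, and each required WT to lie at least 2-fold from the Cyp3a KO. This rule keeps WT from being the highest library of a higher gene and favours it as the lowest. The reverse holds for lower genes, so the place of WT among called genes, here and below, partly follows from the rule. Of the 301 higher genes, WT was the lowest of the 4 libraries in 251, and the highest library was the Cyp3a KO in 131 and the DKO in 148. Of the 219 lower genes, WT was the highest library in 160, and the lowest was the Cyp3a KO in 114 and the DKO in 93. The WT library stood at least 2-fold below each of the other 3 in 119 genes and above each in 52, against 31 below and 29 above for the Cyp3a KO library, 10 and 23 for the Cyp27a1 KO and 141 and 201 for the DKO, which stood apart in the most genes. Some differences from WT were thus also seen in the Cyp27a1 KO, which kept Cyp3a, and what belongs to the WT mouse cannot be told apart from what belongs to the knockout in 1 pair of libraries.

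A second pair of libraries, the DKO against the Cyp27a1 KO, also differs by the Cyp3a deletion and shares neither library with the first. In that pair 333 genes were higher, 2.84% of those measured, and 304 lower, 2.59%. Calls of the same direction in both pairs numbered 89 higher and 68 lower, together 157, which is 30.2% of the 520 calls of the first pair and 24.6% of the 637 of the second. Opposite calls numbered 43, of which 28 were higher in the Cyp3a KO than in WT and lower in the DKO than in the Cyp27a1 KO. Of the 301 higher genes 229 had a positive fold in the second pair, and of the 219 lower genes 167 had a negative one. The lower counts include the Cyp3a family, whose direction the genotype sets. Its members are 8 of the 219 lower genes and 7 of the 68 lower in both pairs. Below, a value "in the second pair" is the log2 fold of the DKO over the Cyp27a1 KO.

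**Figure D2:**
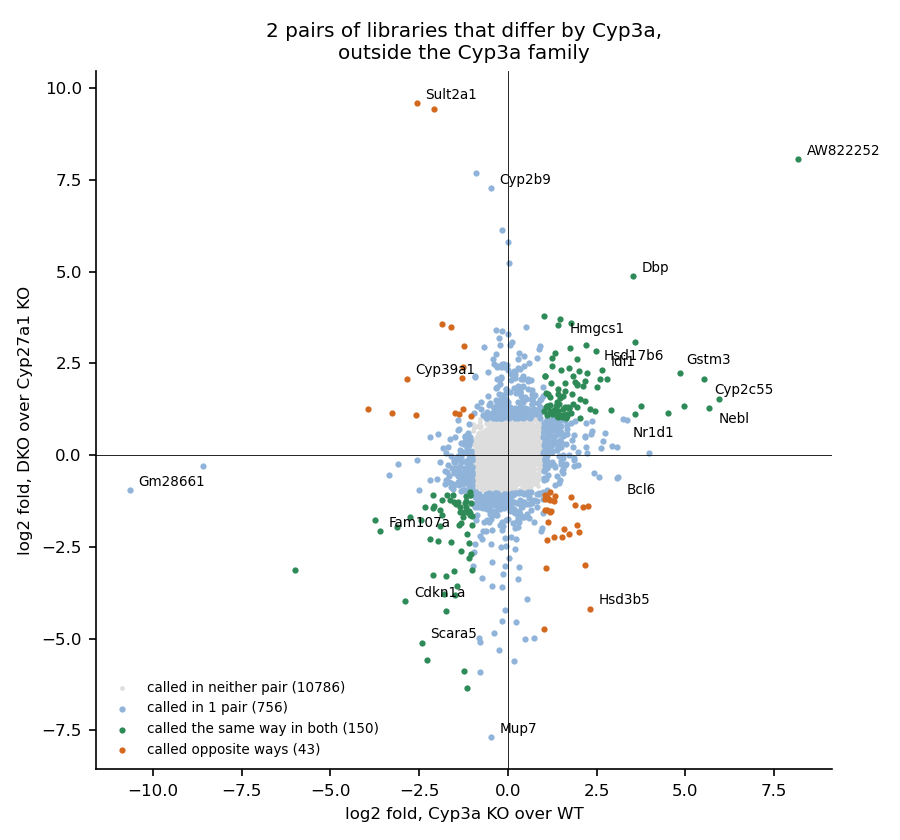
Log2 fold of the Cyp3a KO over WT (horizontal axis) against that of the DKO over the Cyp27a1 KO (vertical axis), 1 point per gene outside the Cyp3a family, coloured by whether it was called in neither pair, in 1 pair, the same way in both or in opposite ways. Dbp, Gstm3, Cyp2c55 and Idi1 lie high on both axes, Cdkn1a and Scara5 low on both, and Hsd3b5 and Sult2a1 in opposite corners.

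Cholesterol synthesis genes stood above WT at most steps of the pathway. In the arm from acetyl-CoA to squalene epoxide, 10 of 11 measured genes were higher in the Cyp3a KO library and 0 were lower, with a median log2 fold of 1.64 against 0.01 over all genes. The same 10 were higher in the second pair, where the list median was 1.97. Summed over the arm, levels were 2084 CPM in the Cyp3a KO library against 556 in WT, 1329.7 in the Cyp27a1 KO and 5988 in the DKO, so the Cyp3a KO stood above WT and above the Cyp27a1 KO, and the DKO highest. The member outside the rule was Ggps1, which makes geranylgeranyl diphosphate on a side branch, with 5.49 CPM in the Cyp3a KO library against 5.43 in WT, 5.16 in the Cyp27a1 KO and 4.58 in the DKO.

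At the entry of the pathway, Acat2, which condenses acetyl-CoA in the cytosol, had 96.3 CPM in the Cyp3a KO library against 36.6 in WT, 90.1 in the Cyp27a1 KO and 246 in the DKO. Hmgcs1, the HMG-CoA synthase (chromosome 13, 119690379 to 119708260, GRCm38), had 551 CPM in the Cyp3a KO library against 119 in WT, 198 in the Cyp27a1 KO and 1589 in the DKO, and its Cyp3a KO value was 4.61 times the WT level (interval 4.48 to 4.74). Mvk, the mevalonate kinase, had 36.9 CPM in the Cyp3a KO library against 9.22 in WT, 19.8 in the Cyp27a1 KO and 77.2 in the DKO, and Mvd, the decarboxylase, had 23.97 CPM in the Cyp3a KO library against 5.83 in WT, 9.26 in the Cyp27a1 KO and 59.5 in the DKO. Their order of libraries was the same as that of Hmgcs1. Pmvk, the phosphomevalonate kinase, had 65.5 CPM in the Cyp3a KO library against 27.3 in WT, 65.2 in the Cyp27a1 KO and 143 in the DKO, so both single knockouts had similar levels.

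Idi1, the isomerase that makes dimethylallyl diphosphate, showed the widest gap of the arm, with 433 CPM in the Cyp3a KO library against 68.8 in WT, 229.6 in the Cyp27a1 KO and 1139.7 in the DKO, or 6.302 times the WT level (interval 6.07 to 6.54) in the Cyp3a KO. Fdft1, which commits farnesyl diphosphate to sterols, had 179 CPM in the Cyp3a KO library against 38.1 in WT, 100.4 in the Cyp27a1 KO and 476 in the DKO. For Fdps, the farnesyl diphosphate synthase, the order was different: it had 431 CPM in the Cyp3a KO library against 138 in WT, 474 in the Cyp27a1 KO and 951 in the DKO, so the Cyp27a1 KO was above the Cyp3a KO. Sqle, the squalene epoxidase, had 125 CPM in the Cyp3a KO library against 40.4 in WT, 62.97 in the Cyp27a1 KO and 248 in the DKO.

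Past lanosterol 6 of 11 measured genes were higher and 0 lower, with a median of 1.02, and 6 were higher in the second pair, 5 of them shared. Cyp51, the lanosterol demethylase (chromosome 5, 4081145 to 4104746), had 325 CPM in the Cyp3a KO library against 83.6 in WT, 212 in the Cyp27a1 KO and 803 in the DKO, and Msmo1, the methylsterol monooxygenase, had 279.6 CPM in the Cyp3a KO library against 74.6 in WT, 169 in the Cyp27a1 KO and 669 in the DKO. Nsdhl, Lss and Dhcr7 had log2 folds of 1.84, 1.73 and 1.29. Sc5d, the lathosterol oxidase, lay near the rule at 1.02. Tm7sf2, Hsd17b7, Ebp and Lbr were below the rule, with 0.29 for Hsd17b7 and 0.68 for Tm7sf2.

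The regulators of the pathway differed less than its enzymes. Of 16 genes for SREBP2 processing, sterol uptake and esterification, 2 were higher and 0 lower, with a median of 0.12. Srebf2, which encodes SREBP2 itself, had 65.99 CPM in the Cyp3a KO library against 60.8 in WT, 50.5 in the Cyp27a1 KO and 87.6 in the DKO, a log2 fold of 0.12. Stard4, a sterol carrier, was past the rule and had 106 CPM in the Cyp3a KO library against 47.8 in WT, 57.7 in the Cyp27a1 KO and 148 in the DKO. Insig1 was below the rule at 0.91. Insig2, which retains the SREBP complex in the endoplasmic reticulum, was on the other side of 0 at -0.85. The genes for SREBP2 transport and cleavage, Scap, Mbtps1 and Mbtps2, stood at 0.30, 0.12 and 0.30.

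**Figure D3:**
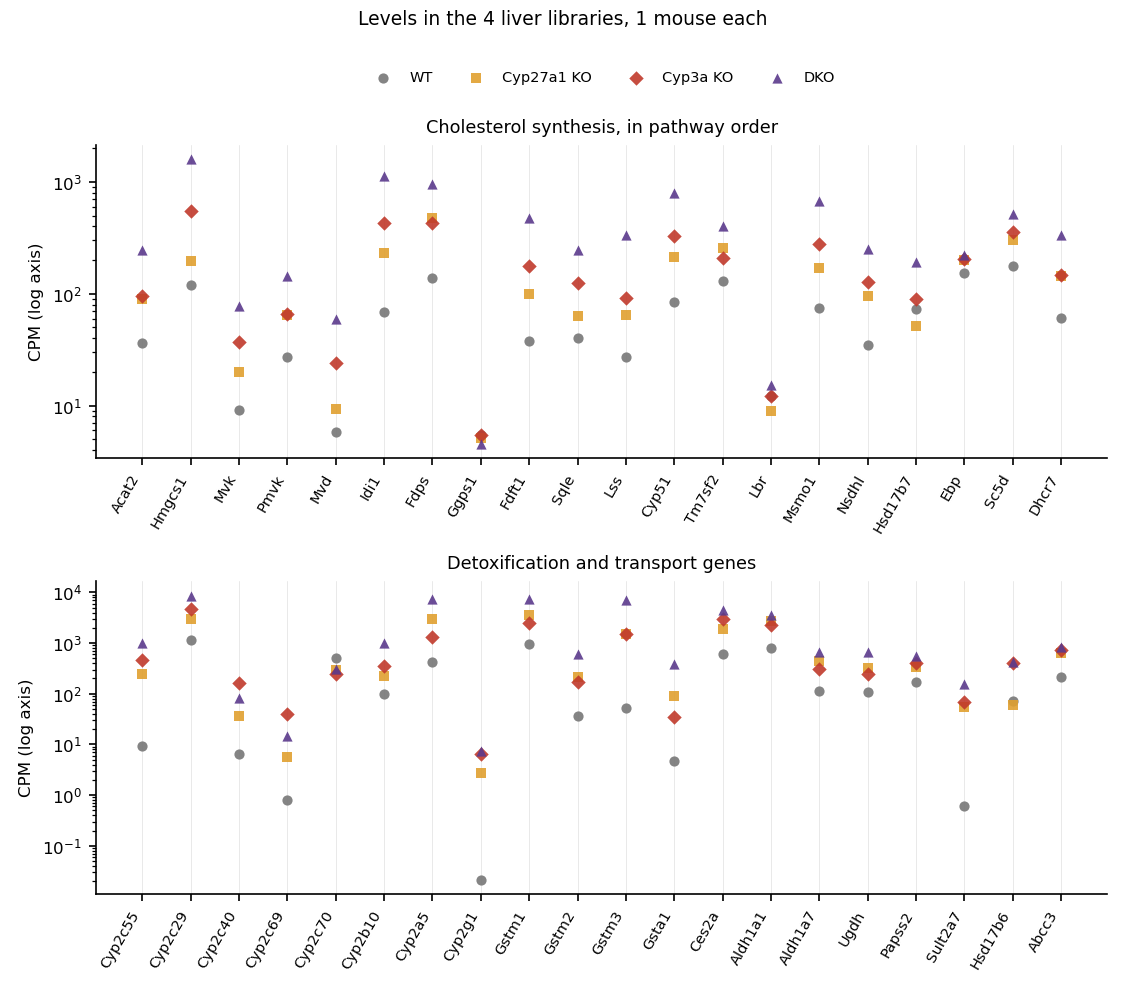
CPM in each of the 4 libraries (log axis, 1 marker per library, no error bar since n is 1) for cholesterol synthesis genes in pathway order (upper panel) and for detoxification and transport genes (lower panel). In the upper panel the Cyp3a KO lies above WT and the DKO highest for Hmgcs1, Idi1, Fdft1 and Cyp51; in the lower panel WT is lowest for Cyp2c55, Gstm3, Gsta1 and Sult2a7, and highest for Cyp2c70.

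Because the mevalonate genes stood together, their promoters were searched for a published core of the sterol regulatory element, CACCCCAC, on both strands, in the 250 bases before the annotated start (RefSeq, GRCm38.p6). Of the 12 listed genes 8 had an entry, with 9 promoters, and 2 of these held the motif (22.2%), those of Hmgcs1 and Acat2, against 2.58% of all promoters of the same length. It was in 0 of 13 promoters of the genes past lanosterol, and in 2 of 27 of the clock genes described further on (7.41%), those of Clock and Cry1. The pair is shown here with the motif in capitals, 5′ to 3′ on the gene's own strand. The Hmgcs1 window is chr13:119690101-119690350 on the plus strand, and the Acat2 window is chr17:12960726-12960975 on the minus strand. A match describes the letters of the window and is not evidence of a bound site, and the motif was chosen after the expression values were seen.
Hmgcs1: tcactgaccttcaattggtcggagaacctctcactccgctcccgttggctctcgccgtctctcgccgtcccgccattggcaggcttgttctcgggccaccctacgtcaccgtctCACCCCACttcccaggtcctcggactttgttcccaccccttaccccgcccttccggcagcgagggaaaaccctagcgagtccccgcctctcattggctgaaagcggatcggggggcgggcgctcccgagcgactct
Acat2: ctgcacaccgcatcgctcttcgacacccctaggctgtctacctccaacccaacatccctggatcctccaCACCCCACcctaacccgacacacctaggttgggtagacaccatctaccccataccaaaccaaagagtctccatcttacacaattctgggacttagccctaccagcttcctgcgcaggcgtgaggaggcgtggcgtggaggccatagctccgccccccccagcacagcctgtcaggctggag

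The xenobiotic-metabolising genes held many of the largest folds outside the Cyp3a family. In the Cyp2c family, whose products oxidise fatty acids, steroids and drugs, 8 of 13 measured members were higher and 1 lower, with a median of 1.14, and the summed level was 2.52 times that of WT. Cyp2c29, the most abundant of those called, had 4649 CPM in the Cyp3a KO library against 1129 in WT, 2965 in the Cyp27a1 KO and 8631 in the DKO. Cyp2c55 had 455 CPM in the Cyp3a KO library against 9.37 in WT, 243 in the Cyp27a1 KO and 1016 in the DKO. Both were lowest in WT and highest in the DKO. Cyp2c40 (chromosome 19, 39767071 to 39812814) had 161 CPM in the Cyp3a KO library against 6.58 in WT, 36.5 in the Cyp27a1 KO and 80.9 in the DKO, and Cyp2c69, which lies in the same cluster (chromosome 19, 39842814 to 39886799), had 40.1 CPM in the Cyp3a KO library against 0.794 in WT, 5.602 in the Cyp27a1 KO and 14.9 in the DKO. For this pair the Cyp3a KO was the highest library, above the DKO as well. The exception was Cyp2c70, the muricholic acid hydroxylase of rodents, with 241 CPM in the Cyp3a KO library against 514 in WT, 298 in the Cyp27a1 KO and 309.8 in the DKO, highest in WT. Close sequence likeness within the Cyp2c family makes the level of any one gene uncertain.

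Among 23 other P450 genes of the Cyp1 and Cyp2 families 3 were higher and 1 lower, with a median of 0.09. Cyp2b10, the textbook CAR target, had 353 CPM in the Cyp3a KO library against 99.3 in WT, 223 in the Cyp27a1 KO and 995 in the DKO, and Cyp2a5, the coumarin hydroxylase, had 1309.7 CPM in the Cyp3a KO library against 427 in WT, 3004 in the Cyp27a1 KO and 7399.9 in the DKO. Cyp2g1 had 326 counts in the Cyp3a KO library against 1 in WT, 133 in the Cyp27a1 KO and 410 in the DKO, so its fold rests on 1 count in WT. The receptors and their partners were not past the rule: of 17 genes 0 were higher and 0 lower, with Nr1i2 (PXR) at a log2 fold of -0.004, Nr1i3 (CAR) at 0.08, Por, the electron donor of the P450s, at 0.14, and Ahr at 0.82.

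Conjugating enzymes differed by family. Of 21 glutathione S-transferases 6 were higher and 0 lower (median 0.43). Gstm3 (chromosome 3, 107963696 to 107969283) had 1504 CPM in the Cyp3a KO library against 51.3 in WT, 1512 in the Cyp27a1 KO and 7182 in the DKO, Gstm2 had 168 CPM in the Cyp3a KO library against 36.998 in WT, 215 in the Cyp27a1 KO and 602 in the DKO, and Gsta1 had 35.2 CPM in the Cyp3a KO library against 4.61 in WT, 90.02 in the Cyp27a1 KO and 384 in the DKO. All 3 were lowest in WT and highest in the DKO, and the Cyp27a1 KO was at or above the Cyp3a KO. Gstm1, the most abundant of those called, was 2.61 times the WT level (interval 2.58 to 2.64), while Gstp1, a male-predominant enzyme, was on the other side of 0 at -0.49. The Gstm genes form a cluster of near-identical members with shared reads.

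Of 19 genes for glucuronidation only Ugdh, which makes the UDP-glucuronic acid, was past the rule, with 243 CPM in the Cyp3a KO library against 110.1 in WT, 329 in the Cyp27a1 KO and 657 in the DKO; the list median was 0.49, and 14 of the 19 folds were above 0. Ugt1a1, the bilirubin-conjugating enzyme, had a log2 fold of 0.75. In the second pair 1 gene of this list was higher and 7 were lower, with a median of -0.15. Sulfation genes were split, with 2 higher and 3 lower of 13. Sult2a7 had 3432 counts in the Cyp3a KO library against 29 in WT, 2676 in the Cyp27a1 KO and 8519 in the DKO, and Papss2, which makes the sulfate donor, was 2.37 times the WT level (interval 2.31 to 2.44). On the lower side, Sult2a1 had 1 count in the Cyp3a KO library against 119 in WT, 22 in the Cyp27a1 KO and 39439 in the DKO, and Sult2a2 had 6 counts in the Cyp3a KO library against 100 in WT, 18 in the Cyp27a1 KO and 32219 in the DKO. Sult1d1 was 2.36 times lower than in WT (interval 2.29 to 2.42). The lower calls of Sult2a1 and Sult2a2 rest on WT levels of 2.55 and 2.14 CPM, and both genes passed the filter through the DKO library.

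Of 21 flavin monooxygenase, aldehyde and ketone enzymes 6 were higher and 0 lower (median 0.41). Aldh1a1, the retinal dehydrogenase, had 2217 CPM in the Cyp3a KO library against 798 in WT, 2752 in the Cyp27a1 KO and 3635 in the DKO, and Aldh1a7 had 313 CPM in the Cyp3a KO library against 113 in WT, 445 in the Cyp27a1 KO and 674 in the DKO. In both the Cyp3a KO was above WT and below the Cyp27a1 KO. Adh4 and Aox1 were also higher, at 1.23 and 1.14. Carboxylesterases were split, with 2 of 14 higher and 2 lower: Ces2a, an ester hydrolase of the endoplasmic reticulum, had 3033 CPM in the Cyp3a KO library against 607 in WT, 1853 in the Cyp27a1 KO and 4399.7 in the DKO, and Ces4a had 1.598 CPM in the Cyp3a KO library against 4.85 in WT, 0.984 in the Cyp27a1 KO and 0.0554 in the DKO. NRF2 antioxidant genes were 0 higher and 1 lower of 13. The lower one, Hmox1, the heme oxygenase, had 13.5 CPM in the Cyp3a KO library against 31.4 in WT, 22.4 in the Cyp27a1 KO and 29.3 in the DKO and is also expressed in macrophages, whose markers are given further on.

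In bile acid synthesis 1 of 18 measured genes was higher and 3 were lower, with a median of 0.11. Cyp7a1, whose product limits the classic route, had 41.3 CPM in the Cyp3a KO library against 22.4 in WT, 362 in the Cyp27a1 KO and 173 in the DKO. Its log2 fold was 0.87 by counts, below the rule, and 1.64 on deposited TPM, above it, so its call depends on the table. Cyp8b1, which sets the cholic acid share, had 663 CPM in the Cyp3a KO library against 467 in WT, 742 in the Cyp27a1 KO and 421 in the DKO, and Cyp7b1 of the alternative route had 209 CPM in the Cyp3a KO library against 231 in WT, 150.2 in the Cyp27a1 KO and 15.4 in the DKO. Neither was past the rule. Akr1d1, the reductase that saturates the steroid ring, was higher, with 283 CPM in the Cyp3a KO library against 130.3 in WT, 309.9 in the Cyp27a1 KO and 619 in the DKO.

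Cyp39a1, an oxysterol hydroxylase (chromosome 17, 43667425 to 43751431), was the lowest of the list, with 13.4 CPM in the Cyp3a KO library against 99.7 in WT, 12.03 in the Cyp27a1 KO and 52.7 in the DKO. WT was the highest library, and the Cyp3a KO and Cyp27a1 KO were close to each other. Acnat2, which joins acyl groups to amino acids, had 14.1 CPM in the Cyp3a KO library against 37.8 in WT, 10.98 in the Cyp27a1 KO and 21.8 in the DKO. The conjugating enzymes Baat and Slc27a5 were at 0.19 and -0.02.

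Of 14 bile acid carriers 3 were higher and 1 lower (median 0.27). Abcc3, a basolateral exporter and PXR and CAR target, had 741 CPM in the Cyp3a KO library against 211 in WT, 624 in the Cyp27a1 KO and 827 in the DKO. Slco1a4, a sinusoidal uptake carrier, had 329.9 CPM in the Cyp3a KO library against 96.1 in WT, 292 in the Cyp27a1 KO and 541 in the DKO. Abcb1a had 7.19 CPM in the Cyp3a KO library against 2.75 in WT, 3.37 in the Cyp27a1 KO and 23.7 in the DKO, but its log2 fold of 1.24 was 0.78 on TPM. The lower gene was Slc10a2, the sodium-dependent bile acid transporter of ileum and bile ducts, with 14.98 CPM in the Cyp3a KO library against 36.96 in WT, 32.8 in the Cyp27a1 KO and 78.4 in the DKO. Abcb11, the canalicular export pump, was below the rule at 0.70. Among 9 genes of FXR and FGF receptor feedback 1 was higher, Nr0b2 (SHP), with 46.3 CPM in the Cyp3a KO library against 16.3 in WT, 7.87 in the Cyp27a1 KO and 24.3 in the DKO, while the median was 0.50. For Nr0b2 the Cyp3a KO was the highest library and the Cyp27a1 KO the lowest.

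The list medians of lipogenic and of fatty acid oxidation genes lay on different sides of 0. The summed lipogenic level was close to that of WT, at 6879 CPM in the Cyp3a KO library against 6848 in WT. Of 15 elongation and desaturation genes 1 was higher and 1 lower (median 0.03). Of 18 lipogenic genes 3 were higher and 0 lower (median 0.35): Elovl6, the elongase of palmitate, had 79.9 CPM in the Cyp3a KO library against 19.2 in WT, 78.4 in the Cyp27a1 KO and 160.1 in the DKO; Acss2, which makes acetyl-CoA from acetate, had 336 CPM in the Cyp3a KO library against 106 in WT, 323 in the Cyp27a1 KO and 709 in the DKO; and Srebf1, the lipogenic SREBP gene, had 94.96 CPM in the Cyp3a KO library against 42.2 in WT, 41.6 in the Cyp27a1 KO and 53.2 in the DKO. Fasn and Acly were below the rule at 0.70 and 0.77. Pltp, the phospholipid transfer protein, was also higher, at 1.25, while the LXR-driven sterol exporters Abcg5 and Abcg8 were at 0.40 and 0.33. In the LXR list as a whole 2 of 12 were higher and 0 lower, with a median of -0.08.

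In the list of PPARalpha targets and of fatty acid oxidation, 10 of 37 members were lower while 2 were higher, with a median of -0.44, and in the second pair 10 were lower and 0 higher, 5 of them shared. Cyp4a14, a fatty acid omega-hydroxylase (chromosome 4, 115486200 to 115496142), had 582 CPM in the Cyp3a KO library against 2185 in WT, 325 in the Cyp27a1 KO and 116 in the DKO. Pdk4, which holds back glucose oxidation in fasting, had 14.4 CPM in the Cyp3a KO library against 53.6 in WT, 27.6 in the Cyp27a1 KO and 11.6 in the DKO, and Ehhadh, a peroxisomal oxidation enzyme, had 309.9 CPM in the Cyp3a KO library against 711 in WT, 408 in the Cyp27a1 KO and 572 in the DKO. WT was the highest library for all 3. Fgf21, the fasting hormone, had 36 counts in the Cyp3a KO library against 160 in WT, 17 in the Cyp27a1 KO and 11 in the DKO, and Acot1 and Plin2 were at -1.24 and -1.03. Cyp4a10 was at -1.004, the edge of the rule. Higher were Bdh1, the ketone body dehydrogenase, at 1.08, and Vnn1, a pantetheinase, at 1.12.

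Of 22 lipid droplet genes 4 were lower and 1 was higher (median -0.33), with Cidec and Plin2 counted in the PPARalpha list as well. Plin5, a droplet coat protein, had 97.5 CPM in the Cyp3a KO library against 354 in WT, 199.6 in the Cyp27a1 KO and 64.1 in the DKO, and Plin4 had 15.7 CPM in the Cyp3a KO library against 73.1 in WT, 30.9 in the Cyp27a1 KO and 5.98 in the DKO. Apoa4, an intestinal and hepatic apolipoprotein induced by lipid load, had 62.2 CPM in the Cyp3a KO library against 286 in WT, 114 in the Cyp27a1 KO and 160.4 in the DKO, and was 4.59 times lower than in WT (interval 4.41 to 4.78). It was the only lower gene of 20 for apolipoproteins and lipoprotein assembly, and Angptl8 was the only higher one. Angptl8, an insulin-induced inhibitor of lipoprotein lipase, had 33.3 CPM in the Cyp3a KO library against 5.81 in WT, 8.75 in the Cyp27a1 KO and 6.09 in the DKO. The Cyp3a KO was the highest library for this gene, and the other 3 lay close together.

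**Figure D4:**
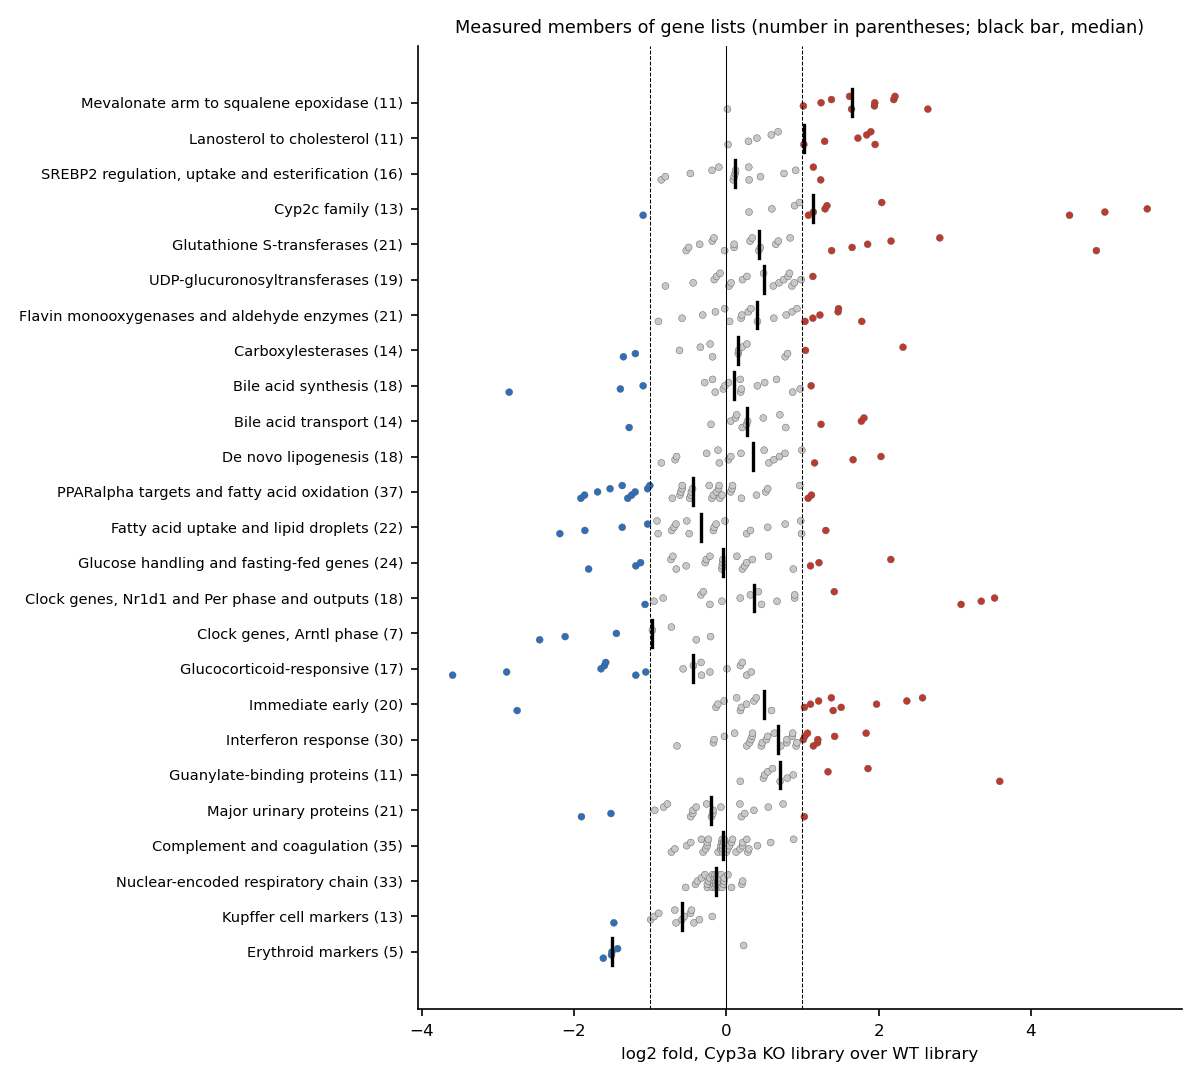
Log2 fold of the Cyp3a KO over WT (horizontal axis) for every measured member of 25 of the lists (rows, number of members in parentheses), with called genes in red or blue, the others in grey, a black bar at each median and dashed lines at the 2-fold rule. Medians of the first 2 rows, cholesterol synthesis, lie at 1.64 and 1.02, that of the Arntl-phase clock genes at -0.97 and that of the erythroid markers at -1.50.

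Genes of the fed and fasted states were on both sides. Of 24 glucose-handling genes 3 were higher and 3 lower, with a median of -0.05. Igfbp1, which is held down by insulin, had 362 CPM in the Cyp3a KO library against 826 in WT, 725 in the Cyp27a1 KO and 472 in the DKO, and Ppp1r3c, a glycogen-targeting subunit, had 53.9 CPM in the Cyp3a KO library against 190.0 in WT, 66.8 in the Cyp27a1 KO and 4.36 in the DKO. Trib3 had 21.97 CPM in the Cyp3a KO library against 4.53 in WT, 7.43 in the Cyp27a1 KO and 10.7 in the DKO, and Pfkfb3, an activator of glycolysis, was 2.18 times the WT level (interval 2.02 to 2.36). G6pc, the glucose-releasing phosphatase, was below the rule at -0.70, and Pck1 was at 0.27. In amino acid catabolism 1 of 33 genes was higher and 1 lower: Oat, the ornithine aminotransferase of pericentral cells, had 1678 CPM in the Cyp3a KO library against 572 in WT, 1988 in the Cyp27a1 KO and 1883 in the DKO, and Sdsl had 7.85 CPM in the Cyp3a KO library against 35.6 in WT, 14.5 in the Cyp27a1 KO and 6.498 in the DKO.

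By zone, 2 of 22 pericentral genes were higher and 0 lower (median 0.29), and 0 of 18 periportal and urea cycle genes were called (median -0.26). The pericentral pair was Oat and Cyp2c29, given above. Glul and Cyp2e1, the classic pericentral markers, were at -0.04 and 0.25.

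The medians of the clock gene lists, drawn up by phase, lay on different sides of 0. Of 7 genes that peak with Arntl, 3 were lower and 0 higher, with a median of -0.97, and the second pair had 4 lower, these 3 among them. Arntl (Bmal1), a core activator, had 10.6 CPM in the Cyp3a KO library against 29.6 in WT, 28.9 in the Cyp27a1 KO and 1.98 in the DKO, and its partner Npas2 had 0.739 CPM in the Cyp3a KO library against 4.87 in WT, 6.04 in the Cyp27a1 KO and 0.185 in the DKO. Cry1, a repressor of the late phase (chromosome 10, 85131700 to 85185064), had 6.83 CPM in the Cyp3a KO library against 39.6 in WT, 26.6 in the Cyp27a1 KO and 7.48 in the DKO. For all 3 the Cyp3a KO and DKO were below both libraries that kept Cyp3a. Clock itself was below the rule at -0.39.

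Of 18 genes of the Nr1d1 and Per phase and their outputs, 4 were higher and 1 lower (median 0.37), and only 11 folds were above 0. Nr1d1 (Rev-erb alpha), which represses Arntl, had 143 CPM in the Cyp3a KO library against 13.6 in WT, 14.8 in the Cyp27a1 KO and 29.2 in the DKO. Dbp, an output activator, had 28.9 CPM in the Cyp3a KO library against 2.06 in WT, 1.22 in the Cyp27a1 KO and 50.03 in the DKO. Bhlhe41 (Dec2, chromosome 6, 145858243 to 145865558) had 260 counts in the Cyp3a KO library against 8 in WT, 45 in the Cyp27a1 KO and 22 in the DKO, and on TPM its log2 fold of 3.08 was 1.86. The order of libraries was not shared: Dbp was highest in the DKO, and Nr1d1 and Bhlhe41 were highest in the Cyp3a KO. Per1, Per2 and Per3 were at -0.21, 0.42 and 0.90, below the rule, whereas in the second pair Per2 and Per3 were at 1.88 and 2.97. Each genotype is 1 mouse and the hour of collection was not seen in the labels read, so hour and genotype cannot be told apart in these genes.

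The promoters of the clock genes were searched for the canonical E-box CACGTG in the same windows. Of 27 promoters of 21 genes 8 held it (29.6%), those of Bhlhe41, Ciart, Cry1, Lonrf3, Per1, Tef and Tspan4, against 6.02% of all promoters. It was also in 3 of 13 promoters of the cholesterol genes past lanosterol (23.1%), those of Dhcr7, Hsd17b7 and Sc5d, and in 0 of 9 of the mevalonate arm. The D-box TTATGTAA, searched on both strands, was in 1 of the 27 clock promoters (3.70%), that of Per3, and in 0.819% of all promoters. The E-box is a palindrome, so for it both strands give the same match. Bhlhe41, called higher, and Cry1, called lower, are shown because they held the same motif and stood on opposite sides. The windows are chr6:145865421-145865670 and chr10:85185055-85185304, both on the minus strand of GRCm38.p6 (RefSeq), with the E-box in capitals. They precede the RefSeq starts, which differ from the GENCODE gene coordinates given above, so both windows lie partly inside those coordinates.
Bhlhe41: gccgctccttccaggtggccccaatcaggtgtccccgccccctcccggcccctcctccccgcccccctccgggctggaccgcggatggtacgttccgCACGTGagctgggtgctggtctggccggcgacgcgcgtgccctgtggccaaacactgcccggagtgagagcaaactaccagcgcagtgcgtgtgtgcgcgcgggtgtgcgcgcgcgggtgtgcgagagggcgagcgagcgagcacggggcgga
Cry1: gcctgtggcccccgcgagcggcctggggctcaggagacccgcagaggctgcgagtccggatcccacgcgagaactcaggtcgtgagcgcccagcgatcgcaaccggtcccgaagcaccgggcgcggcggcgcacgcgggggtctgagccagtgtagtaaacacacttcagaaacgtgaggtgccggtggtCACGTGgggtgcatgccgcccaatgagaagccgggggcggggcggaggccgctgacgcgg

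**Figure D5:**
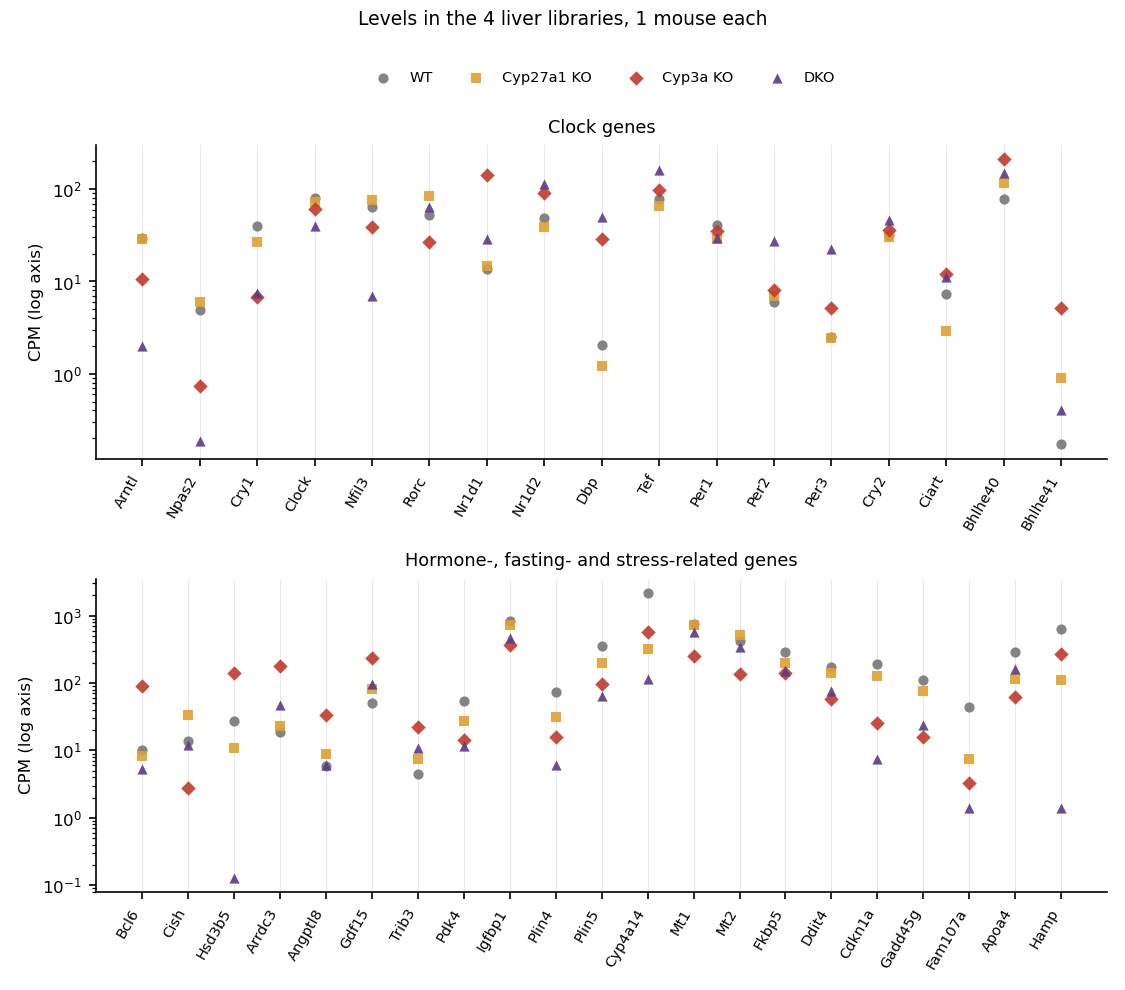
CPM in each of the 4 libraries (log axis, 1 marker per library, no error bar since n is 1) for clock genes (upper panel) and for hormone-, fasting- and stress-related genes (lower panel). The Cyp3a KO library is the highest for Nr1d1, Bhlhe41, Bcl6, Arrdc3 and Angptl8 and the lowest for Cish, Mt1 and Mt2.

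Of 17 glucocorticoid-responsive genes 7 were lower and 0 higher, with a median of -0.43; in the second pair 2 were lower. Fam107a (chromosome 14, 8296274 to 8318023) had 3.26 CPM in the Cyp3a KO library against 44.8 in WT, 7.49 in the Cyp27a1 KO and 1.403 in the DKO. Cdkn1a, the cell cycle inhibitor p21, had 25.8 CPM in the Cyp3a KO library against 194 in WT, 126 in the Cyp27a1 KO and 7.55 in the DKO. Fkbp5, a chaperone of the receptor, had 139 CPM in the Cyp3a KO library against 290.0 in WT, 197 in the Cyp27a1 KO and 152 in the DKO, and Ddit4, an inhibitor of mTORC1, had 57.6 CPM in the Cyp3a KO library against 176 in WT, 142 in the Cyp27a1 KO and 77.1 in the DKO. WT was the highest library for each of these 4. The metallothioneins Mt1 and Mt2, which also respond to zinc, had a different order: Mt1 had 248 CPM in the Cyp3a KO library against 745 in WT, 733 in the Cyp27a1 KO and 573 in the DKO, so the Cyp3a KO alone was low. Tat, Pck1 and Tsc22d3 of the same list were below the rule at -0.33, 0.27 and -0.43, and Nr3c1, the receptor, was at 0.01.

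Among 20 immediate early genes 9 were higher and 1 was lower (median 0.49). Egr1 had 92.6 CPM in the Cyp3a KO library against 15.1 in WT, 121 in the Cyp27a1 KO and 80.3 in the DKO, Junb had 66.1 CPM in the Cyp3a KO library against 16.5 in WT, 42.1 in the Cyp27a1 KO and 45.1 in the DKO, and Fos had 14.7 CPM in the Cyp3a KO library against 4.83 in WT, 9.799 in the Cyp27a1 KO and 11.6 in the DKO. For these 3 the WT library was the lowest and the other 3 lay closer together. Jun had 229.8 CPM in the Cyp3a KO library against 98.9 in WT, 101 in the Cyp27a1 KO and 164 in the DKO, with the Cyp27a1 KO near WT. Gadd45b was 5.42 times the WT level (interval 4.87 to 6.04), while its paralog Gadd45g had 16.04 CPM in the Cyp3a KO library against 110.4 in WT, 76.8 in the Cyp27a1 KO and 23.7 in the DKO, lower in both libraries without Cyp3a. Of 20 heat shock chaperones 1 was higher, Hspa1b, at 1.59, and of 19 endoplasmic reticulum chaperones 2 were higher and 0 lower, Pdia4 and Sdf2l1, with a median of 0.44. ATF4 response genes were 3 higher and 3 lower of 15, with Gdf15, a stress hormone, at 237 CPM in the Cyp3a KO library against 51.3 in WT, 82.4 in the Cyp27a1 KO and 96.7 in the DKO.

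In the growth hormone axis the large differences were in few members. Of 15 genes measured 2 were higher and 1 lower (median 0.16). Bcl6, a repressor that opposes STAT5 (chromosome 16, 23965052 to 23988852), had 90.1 CPM in the Cyp3a KO library against 10.1 in WT, 8.27 in the Cyp27a1 KO and 5.32 in the DKO, 8.96 times the WT level (interval 8.14 to 9.87). Cish, a STAT5 target and feedback inhibitor, had 2.796 CPM in the Cyp3a KO library against 13.7 in WT, 34.04 in the Cyp27a1 KO and 12.1 in the DKO. Both were outside the range of the other 3 libraries, Bcl6 above and Cish below. Socs2, another STAT5 target, was at 0.02, and Igfals was below the rule at 0.53.

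Sex-biased genes were mixed in this pair. Of 22 genes with male-biased liver expression 3 were higher and 2 lower (median -0.06), against 0 higher and 20 lower in the second pair. Hsd3b5, a male-specific steroid enzyme, had 139 CPM in the Cyp3a KO library against 27.6 in WT, 10.9 in the Cyp27a1 KO and 0.129 in the DKO, highest in the Cyp3a KO. Mup20, the pheromone protein darcin, had 2069 CPM in the Cyp3a KO library against 7729 in WT, 2067 in the Cyp27a1 KO and 537 in the DKO, and Elovl3, a male-biased elongase, had 361 CPM in the Cyp3a KO library against 802 in WT, 428 in the Cyp27a1 KO and 4.78 in the DKO. The 21 major urinary protein genes summed to 79920.0 CPM in the Cyp3a KO library against 91477 in WT, 38392 in the Cyp27a1 KO and 2440.1 in the DKO, and 1 was higher and 2 were lower in the Cyp3a KO. Their sequences are nearly the same, so how reads were divided among them is uncertain.

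Among female-biased genes, 8 of 18 were lower and 3 higher, with a median of -0.62, against 11 higher and 4 lower in the second pair (median 1.26), and 3 of the lower ones are Cyp3a genes, whose deletion sets their direction. Among the others, Cyp17a1, the steroid hydroxylase and lyase, had 2.56 CPM in the Cyp3a KO library against 26.2 in WT, 8.13 in the Cyp27a1 KO and 1.74 in the DKO, and Abcd2, a peroxisomal transporter, had 18.4 CPM in the Cyp3a KO library against 2.85 in WT, 8.15 in the Cyp27a1 KO and 31.01 in the DKO. Cyp2c40 and Cyp2c69, given above, are also on this list. Sult2a1 and Sult2a2, among its lower members, had WT levels of only 2.55 and 2.14 CPM and passed the filter through the DKO. Cyp4a10, another lower member, was at the edge of the rule at -1.004. In steroid metabolism 5 of 17 genes were higher and 1 was lower (median 0.65). Hsd17b6, which acts on androgens and retinol (chromosome 10, 127990936 to 128007611), had 411 CPM in the Cyp3a KO library against 73.4 in WT, 60.3 in the Cyp27a1 KO and 431 in the DKO. It was high in both libraries without Cyp3a and low in both that kept Cyp3a, by 2.48 and 2.83 on the log2 scale. Hsd3b3 was also higher, at 1.51.

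Among 30 interferon response genes 8 were higher and 0 lower, with a median of 0.67 and 26 of 30 folds above 0. The second pair had 4 higher and 0 lower, and only 1 gene was called in both pairs. Ifi47, an interferon-induced GTPase, had 16.5 CPM in the Cyp3a KO library against 4.25 in WT, 7.91 in the Cyp27a1 KO and 9.396 in the DKO, and Igtp, of the same class, had 18.2 CPM in the Cyp3a KO library against 6.46 in WT, 9.699 in the Cyp27a1 KO and 16.4 in the DKO. WT was the lowest library for both. Of 11 guanylate-binding proteins, which are induced by interferon gamma, 3 were higher and 0 lower (median 0.71): Gbp10 had 17.2 CPM in the Cyp3a KO library against 0.965 in WT, 4.38 in the Cyp27a1 KO and 10.2 in the DKO, Gbp6 had 13.2 CPM in the Cyp3a KO library against 3.28 in WT, 9.08 in the Cyp27a1 KO and 8.23 in the DKO, and Gbp7 was at 1.34. Guanylate-binding genes lie in clusters of similar members, so single values are uncertain. The 6 measured MHC class II genes, markers of antigen-presenting cells, had a median of 0.57 with 0 called, and their summed level was 1.57 times that of WT. No T or NK cell marker passed the filter (0 members).

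Markers of other liver cells were compared in the same way, and in bulk tissue fewer cells of a type cannot be told apart from less RNA per cell. All 13 Kupffer cell markers had folds below 0, with 1 called lower and a median of -0.58, and their sum was 254 CPM in the Cyp3a KO library against 383 in WT, 391 in the Cyp27a1 KO and 552 in the DKO. Marco, a scavenger receptor, had 1.78 CPM in the Cyp3a KO library against 5.83 in WT, 3.88 in the Cyp27a1 KO and 9.25 in the DKO, and Clec4f, a defining marker, had 50.6 CPM in the Cyp3a KO library against 76.1 in WT, 78.4 in the Cyp27a1 KO and 91.8 in the DKO. Endothelial markers had 1 of 11 called lower, Lyve1, with 11.7 CPM in the Cyp3a KO library against 32.6 in WT, 26.97 in the Cyp27a1 KO and 25.7 in the DKO, and a median of -0.26. Stellate and matrix markers had 1 of 11 higher, Acta2, from 0.558 to 1.897 CPM, and 0 of 6 cholangiocyte markers were called. Of 5 erythroid genes 4 were lower, with a sum of 286 CPM in the Cyp3a KO library against 608 in WT, 448 in the Cyp27a1 KO and 280.0 in the DKO. Hba-a1, an alpha-globin, had 32.1 CPM in the Cyp3a KO library against 99.2 in WT, 58.98 in the Cyp27a1 KO and 58.2 in the DKO, while Alas2, the erythroid heme synthase gene, was at 0.23.

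Beside these markers, 4 of 23 iron genes were lower and 0 higher (median -0.06). Hamp, encoding hepcidin, had 272 CPM in the Cyp3a KO library against 642 in WT, 112 in the Cyp27a1 KO and 1.403 in the DKO, and Slc40a1, the iron exporter that is abundant in Kupffer cells, had 74.4 CPM in the Cyp3a KO library against 156 in WT, 108 in the Cyp27a1 KO and 113 in the DKO. The part of the lower Kupffer and erythroid marker levels in these values was not tested. Acute phase genes were 2 higher and 2 lower of 24, with Saa1 2.97 times lower than in WT (interval 2.75 to 3.22); 0 of 35 complement and coagulation genes and 0 of 33 nuclear genes of the respiratory chain were called, with medians of -0.04 and -0.14. Cell cycle genes were 0 higher and 1 lower of 22, the lower one being Rrm2, a ribonucleotide reductase subunit, with 0.839 CPM in the Cyp3a KO library against 7.57 in WT, 5.44 in the Cyp27a1 KO and 12.3 in the DKO.

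The Cyp3a KO library differed by at least 2-fold from each of the other 3 in 29 genes on the higher side, 0.247% of those measured, and in 31 on the lower side, 0.264%, the Cyp3a family left out. This count was chosen after the values were seen. The higher group included Bcl6, Hsd3b5, Nr1d1, Bhlhe41, Angptl8 and Gdf15, given above, and Arrdc3, an arrestin-like adaptor, which had 179 CPM in the Cyp3a KO library against 18.6 in WT, 23.3 in the Cyp27a1 KO and 46.7 in the DKO. Gnaz, a G protein subunit, had 6.57 CPM in the Cyp3a KO library against 0.429 in WT, 0.181 in the Cyp27a1 KO and 0.314 in the DKO, and Nebl, encoding nebulette, had 46.3 CPM in the Cyp3a KO library against 0.429 in WT, 7.01 in the Cyp27a1 KO and 17.8 in the DKO. The lower group included Rrm2, Cish, Mt1, Mt2 and Lyve1, and Tff3, a trefoil peptide, with 0.379 CPM in the Cyp3a KO library against 6.97 in WT, 2.57 in the Cyp27a1 KO and 2.104 in the DKO. Hhex, a liver transcription factor, had 15.9 CPM in the Cyp3a KO library against 51.6 in WT, 77.1 in the Cyp27a1 KO and 45.8 in the DKO, and Cd14, the lipopolysaccharide co-receptor of macrophages, had 1.34 CPM in the Cyp3a KO library against 3.43 in WT, 4.28 in the Cyp27a1 KO and 5.48 in the DKO.

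Outside the lists, 345 of the 520 called genes had no list. AW822252, annotated as a pseudogene, had the largest log2 fold of all, 8.19, and 8.06 in the second pair. Robo1, an axon guidance receptor, had 17.3 CPM in the Cyp3a KO library against 2.19 in WT, 22.95 in the Cyp27a1 KO and 35.02 in the DKO, and Cav1, the caveolar coat protein, had 15.7 CPM in the Cyp3a KO library against 2.02 in WT, 15.5 in the Cyp27a1 KO and 20.3 in the DKO. For both WT was the lowest library and the other 3 were closer to each other. On the lower side, Scara5, a ferritin receptor, had 10.4 CPM in the Cyp3a KO library against 58.04 in WT, 23.1 in the Cyp27a1 KO and 0.185 in the DKO; Slc3a1, a subunit of the cystine transporter, had 12.3 CPM in the Cyp3a KO library against 64.4 in WT, 26.4 in the Cyp27a1 KO and 9.599 in the DKO; and Slc22a7, an organic anion transporter, had 11.6 CPM in the Cyp3a KO library against 50.3 in WT, 26.5 in the Cyp27a1 KO and 9.78 in the DKO. Car3, a carbonic anhydrase of liver and fat, was among the most abundant of the higher genes, with 3147 CPM in the Cyp3a KO library against 919.5 in WT, 3185 in the Cyp27a1 KO and 1449 in the DKO.

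The lowest non-coding genes were copies of mitochondrial sequence on chromosome 1, singled out after their values were seen. Gm28661 (chromosome 1, 24614885 to 24615565) had 0 counts in the Cyp3a KO library against 37416 in WT, 54376 in the Cyp27a1 KO and 30737 in the DKO, so its CPM was at least 13394 times lower in the Cyp3a KO than in WT, with the floor of 3 counts for the library at 0. Gm10925 (chromosome 1, 24613974 to 24614651) had 129 counts in the Cyp3a KO library against 54772 in WT, 39612 in the Cyp27a1 KO and 35072 in the DKO. Over 681 aligned bases Gm28661 was 100% identical to mt-Co2, and over 678 bases Gm10925 was 100% identical to mt-Atp6, so no read within these bases can tell copy from original. With copy and original summed, the log2 fold of mt-Co2 was 0.11, against 0.38 for the mitochondrial gene alone, and that of mt-Atp6 was -0.03, against 0.32. Gm28438, a copy of mt-Nd3, gave -0.13 with the original added. The neighbouring Gm29216, a copy of mt-Co1, had 69254 counts in the Cyp3a KO library against 58794 in WT, 67674 in the Cyp27a1 KO and 117253 in the DKO and was not called. By annotated type, 4.11% of protein-coding genes were called, against 20% of 40 unprocessed and 13.5% of 156 processed pseudogenes. The share was 35.7% of 28 transcribed unprocessed pseudogenes. The called unprocessed pseudogenes, 1 higher and 7 lower, include the mitochondrial copies Gm28661, Gm10925, Gm28438 and Gm28437, all lower. Gm28437, 100% identical to mt-Co3, had 0 counts in the Cyp3a KO library against 1478 in WT, 2034 in the Cyp27a1 KO and 230 in the DKO. These copies are thus part of the 20%.

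Position near the deleted genes was looked at last. Outside the family, 0 of 66 measured genes within 5 Mb of Cyp3a11 on chromosome 5 were called, and 4 of 127 at 5 to 20 Mb were, or 3.15%, among them Caln1, with 70 counts in the Cyp3a KO library against 236 in WT, 183 in the Cyp27a1 KO and 79 in the DKO. Within 1 Mb of Cyp3a13, which lies in this outer range, 3 of 43 were called, or 6.98%. Both lower ones, named after their values were seen, are its near neighbours: Gjc3, a gap junction gene (chromosome 5, 137953461 to 137963098), had 100 counts in the Cyp3a KO library against 279 in WT, 150 in the Cyp27a1 KO and 82 in the DKO, and the pseudogene Gm4963 (chromosome 5, 137993047 to 137993424) had 37 counts in the Cyp3a KO library against 93 in WT, 44 in the Cyp27a1 KO and 27 in the DKO. WT was the highest library for both, and neither was called in the second pair. On the rest of chromosome 5 the share was 4.19% of 549, and over all genes with a position it was 4.31% of 11495. The highest share was that of chromosome 19, which carries the Cyp2c cluster, with 30 of 425 called, or 7.06%.

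The deposited TPM table gave the same direction for all 301 higher and all 219 lower genes, and at least a 2-fold difference for 415 of the 520. Its median log2 fold over the measured genes was 0.08, so genes near the rule shifted upwards. Count and TPM folds were over 1 apart on the log2 scale, among genes with a mean of at least 5 CPM, for 2 genes: Nebl, with 5.66 by counts and 4.20 by TPM, and Fryl, with 0.22 and -0.86. Overlapping and antisense genes are uncertain, as use of strand in counting was not seen in the sources used here.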

How the data were processed

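TruSeq libraries of liver RNA came from 4 males, 1 for each genotype, per the labels' protocols. The authors deposited a gene table of unscaled estimated counts and a second table of TPM. The build mm10 and the tools kallisto 0.43.1, HISAT2 2.0.5 and Trimmomatic 0.33 are listed, without roles, per the submitters' processing notes, and the annotation release is not given in the sources used here. Of the deposited estimated counts 57.7% were whole, and they were rounded to whole numbers. A single unnamed row (1 of the table, with 0 counts) was dropped.

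TMM factors from edgeR 4.0.16 in R 4.3.3 set the effective library sizes, at 0.937 for WT, 0.994 for the Cyp3a KO, 0.996 for the Cyp27a1 KO and 1.08 for the DKO. For log2 folds a pseudocount of 0.5 was added to CPM, so changes of low genes are understated, and ratios use CPM alone. Called genes had at least a 2-fold difference, a mean of at least 1 CPM over the 4 libraries and a conditional binomial interval of the ratio (exact Clopper-Pearson, 95%) that left out 1. Reads carry no molecular identifiers, so intervals and the floor of 3 counts cover counting error only. With 1 library per genotype no test was run. Coordinates are those of GENCODE M21 (GRCm38, the mm10 build), matched by symbol for 11503 of the 11743 measured genes, and promoters are from RefSeq.

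Named genes were the 20 largest and 20 smallest folds among called genes with a mean of at least 5 CPM. A further choice took 12 per direction with matching calls in the first and second pair, ranked by the size of the weaker fold. The 8 most abundant per direction were added, with up to 6 members per list with the largest folds. Members that show a list's range were also named, as were up to 6 genes whose count and TPM folds differed by over 1. Predicted symbols were counted but passed over, and some measured genes are counted in their lists but not reported here by name. The members, the 62 gene lists and the rules were chosen with earlier results of these data known, and genes outside these rules, such as the mitochondrial copies, were picked once their values had been seen. The alternatives tried were library totals, DESeq2 1.42.0 size factors, TPM, other filters, a pseudocount of 0.1 or 2, a 4-fold threshold and calls without the interval; recentred TPM was added later, with the data seen. The other software was pandas 2.3.3, scipy 1.17.1 and numpy 2.4.6 under Python 3.11.15.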

Additional observations from a re-analysis of the deposited data

Results flagged for a closer look

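Named genes that stood on opposite sides in the pair Cyp3a KO against WT and the pair DKO against Cyp27a1 KO are listed here with their log2 folds in that order; the difference between the pairs was not tested, since each has 1 library a side. Lower without Cyp3a in the first pair and higher in the second were Cyp39a1 -2.85 and 2.09, Sult2a1 -2.55 and 9.60 and Sult2a2 -2.09 and 9.43. The carrier Slc10a2 -1.27 and 1.25, Rrm2 -2.59 and 1.11 and Marco -1.48 and 1.16 were also in this group. Higher in the first pair and lower in the second were Hsd3b5 2.31 and -4.18, Nudt7 1.10 and -2.32 and Moxd1 1.07 and -3.07. These are on the male-biased list, of whose 22 genes 3 were higher and 2 lower in the first pair. The major urinary protein gene Mup2 1.02 and -4.75 and the thyroxine-binding globulin gene Serpina7 1.72 and -2.16 went the same way. The same pattern was seen in some metabolic enzymes and lipid genes, with Ces1e 1.04 and -1.08, Aox1 1.14 and -1.19 and Vnn1 1.12 and -1.82. Fitm1 1.31 and -2.22, Asns 1.20 and -1.22 and Car3 1.77 and -1.14 were others. Among genes of other roles the values were Raet1d 1.997 and -2.09, Apcs 1.09 and -1.49, Acta2 1.18 and -1.001, Dct 1.57 and -2.02 and Keg1 1.53 and -2.22. The pseudogene Rpl17-ps8 and the remaining genes gave Rpl17-ps8 2.175 and -2.99, Xlr3a 1.94 and -1.91, Hectd2 2.11 and -1.41 and Nrep 2.27 and -1.37.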

How the results depend on the processing

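No paired analysis was possible because each genotype has 1 library, and no replicate could be left out. Of the 194 called genes among those named or listed, 0 changed direction under the alternatives run, which most of them could not have shown. Filters, the 4-fold rule and calls without the interval leave a fold as it is, and a pseudocount cannot change its sign. Scaling shifted folds by far less than the 2-fold rule, so only the TPM alternatives could have reversed a called gene. Medians of lists near 0 did change sign with library totals and on TPM. Examples are the LXR list (0.01 and 0.04), male-biased genes (0.03 and 0.02) and reference genes (0.005 and 0.10). The 219 lower genes became 132 with a mean of at least 5 CPM and 132 with a pseudocount of 2, and the 333 higher genes of the second pair became 181 with a mean of at least 5 CPM. At a 4-fold rule 51 higher and 38 lower genes were left, 91 and 79 in the second pair, and 13 and 14 in both. The lower counts at this rule include Cyp3a genes, all 8 measured ones in the first pair. The split of 301 higher and 219 lower (57.9% higher) was 348 and 172 (66.9%) with library-total scaling, 368 and 178 (67.4%) on deposited TPM, and 301 and 218 on TPM recentred on its median gene, an alternative added after seeing the data; library totals moved the median log2 fold of all genes from 0.01 to 0.09. Of these 194 genes, 194 kept their call with DESeq2 size factors, 187 with library totals, 173 on TPM, 170 with a pseudocount of 2 and 62 at 4-fold. Depth limits a gene at 0 counts to below 0.0643 CPM in WT and 0.0599 in the Cyp3a KO, and animal-to-animal spread is unknown.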
